A study of Mus musculus with 12 samples.

Results

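Collagens are the main structural proteins of the extracellular matrix, and 44 of the 24890 features in the 12 libraries are collagen genes, taken as every gene symbol made of Col, a type number, the letter a and a chain number. They comprise 11 fibrillar chains, 8 basement membrane chains (6 of type IV and the chains of types XV and XVIII) and 25 others, of which 6 are of type VI. The series compared 2 white fat depots of male C57BL/6J mice aged 18 weeks: the epididymal depot (EAT, a visceral fat pad) and the inguinal depot (IAT, under the skin). Each depot was digested with collagenase I into adipocytes and stromal vascular cells (SVCs), the mixed cells of the tissue other than adipocytes. Both fractions of both depots were sequenced, which gives 4 groups of 3 libraries. No allele or agent was given to any group, the treatment is given as none, and the titles of all 12 libraries carry the tag NCD, which the labels do not spell out. The labels do not tell whether the libraries of a group come from separate mice, from pools or from repeat preparations, so p-values measure only the spread between these libraries.

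Each collagen molecule is a triple helix of chains, either copies of a single chain or a mixture of related ones. Fibrillar collagens such as types I, III and V assemble into the tensile fibres of connective tissue, type IV forms the sheet of the basement membrane, and type VI forms beaded filaments close to cells. Every mature adipocyte is wrapped in a basement membrane, while fibrillar collagen in fat is made mostly by fibroblast-like progenitors, and deposition of fibrillar and type VI collagen is a feature of fibrotic fat.

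The deposited values are FPKM, fragment counts scaled to transcript length and to the mapped fragments of the library, so levels can be set side by side between genes. Comparisons between libraries shift with the scaling chosen, as given below. Differences were tested with limma on log2(FPKM + 1) across 13175 features, those that reached 1 FPKM in 3 or more libraries, and a gene is called higher or lower where its Benjamini-Hochberg adjusted p is under 0.05. All differences below are on that log2(FPKM + 1) scale, with their SE, which understates the change of genes at low FPKM. Of the 44 collagen genes, 28 entered the test (7 fibrillar, 8 basement membrane and 13 others). Col4a6, Col6a5, Col8a2 and Col13a1 reached 1 FPKM in all 3 libraries of 1 group only, and such a gene could enter the test only through the group in which it is high, so counts over the 28 are descriptions.

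The libraries held an estimated 14.1 to 24.6 M fragments, derived from the deposited confidence bounds, and 10718 to 12418 features at 1 FPKM or more. The lowest correlation between libraries of a group was 0.990. The 8 adipocyte markers summed to 22787 to 30784 FPKM in adipocytes and 104 to 267 FPKM in SVCs, and the 10 markers of stromal progenitors and fibroblasts to 185 to 241 FPKM and 4641 to 5802 FPKM, so the markers of each labelled fraction were high in it. Summed markers of mural cells ranged from 227 to 332 FPKM in adipocytes and from 418 to 566 FPKM in SVCs, and those of macrophages from 55.9 to 335 FPKM and from 1427 to 2293 FPKM. Most of the mural sum in adipocytes was Mcam, with means of 240 FPKM in EAT and 177 FPKM in IAT, against 49.2 and 46.5 FPKM in SVCs. Replicate 1 of EAT adipocytes stood apart: 25 of the 28 tested collagens had their lowest EAT adipocyte value in it, with a median of -0.13 against the other libraries of the group, while the median over all features was -0.01. Collagen calls that change without that library are given with and without it, and the other gene lists only with all 12 libraries. Whether 2 groups overlap is given beside single genes below. As background, the groups did not overlap for 48.3% of all tested features between the depots in adipocytes, 55.1% between the depots in SVCs, 83.1% between the fractions in EAT and 88.3% in IAT. In bulk tissue fractions, fewer cells of a type and less RNA per cell cannot be told apart.

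Collagen transcripts were most abundant in IAT SVCs. The summed FPKM of the 44 genes was 5571, 5343 and 5492 in the 3 IAT SVC libraries and 3018, 3043 and 2801 in EAT SVCs. In adipocytes it was 695, 886 and 986 in EAT and 872, 824 and 925 in IAT, so the depots overlapped in adipocytes and were apart in SVCs. Relative to the FPKM of all features, collagens made up 1.05% ± 0.0541 (SD, n = 3) in IAT SVCs, 0.611% ± 0.0399 in EAT SVCs, 0.183% ± 0.0149 in IAT adipocytes and 0.187% ± 0.0478 in EAT adipocytes.

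The classes contributed unequally to these sums. Fibrillar chains made up 66.9% ± 1.93 (SD, n = 3) of the collagen FPKM in IAT SVCs and 49.2% ± 0.760 in EAT SVCs, and 40.4% ± 0.772 in IAT and 32.1% ± 3.27 in EAT adipocytes. Basement membrane chains ran in the opposite order, from 48.7% ± 3.01 in EAT adipocytes and 43.9% ± 1.11 in IAT adipocytes to 24.2% ± 0.597 in EAT SVCs and 14.2% ± 1.06 in IAT SVCs. No library of any group reached into the range of another for either class. These are shares of a total that was larger in SVCs. The summed FPKM of basement membrane chains was itself lower in adipocytes, with means of 419 in EAT and 384 in IAT, against 716 and 777 in SVCs. Within the basement membrane class, types XV and XVIII accounted for 19.5% ± 0.920 of the collagen FPKM in EAT adipocytes and for 2.39% ± 0.0815 in IAT SVCs. The summed FPKM of these types had means of 167 and 131 in those groups. Type VI ranged from 15.1% ± 0.341 in IAT adipocytes to 23.9% ± 0.412 in EAT SVCs.

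**Figure D1:**
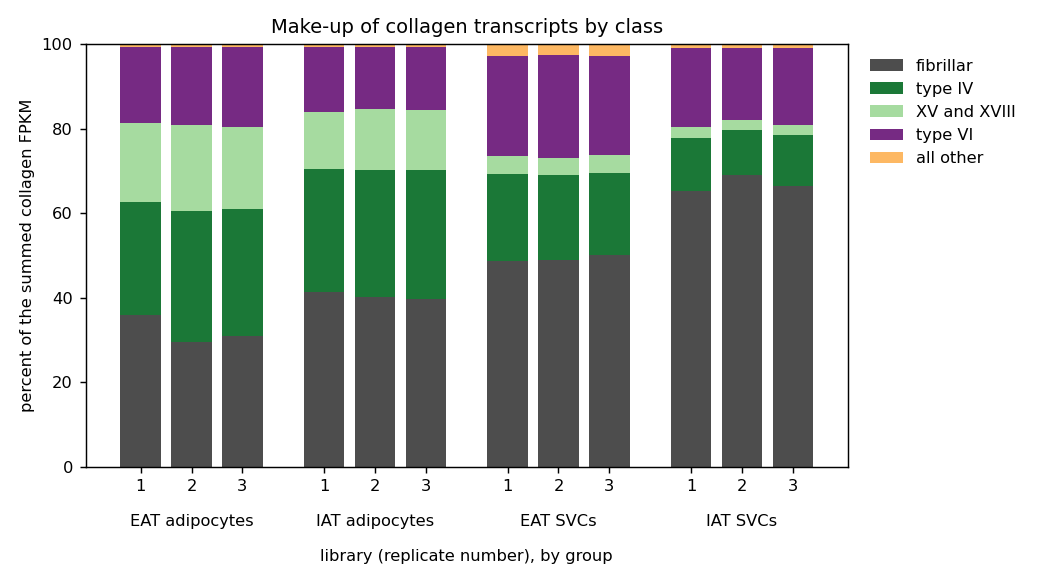
Share of the summed collagen FPKM (vertical axis, percent) held by each class in each of the 12 libraries (horizontal axis, replicate number within a group). The fibrillar share grows from 29.6 to 35.8% in EAT adipocytes to 65.2 to 69.0% in IAT SVCs, and the type XV and XVIII share is at 18.6 to 20.5% in EAT adipocytes against 2.30 to 2.45% in IAT SVCs.

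**Figure D2:**
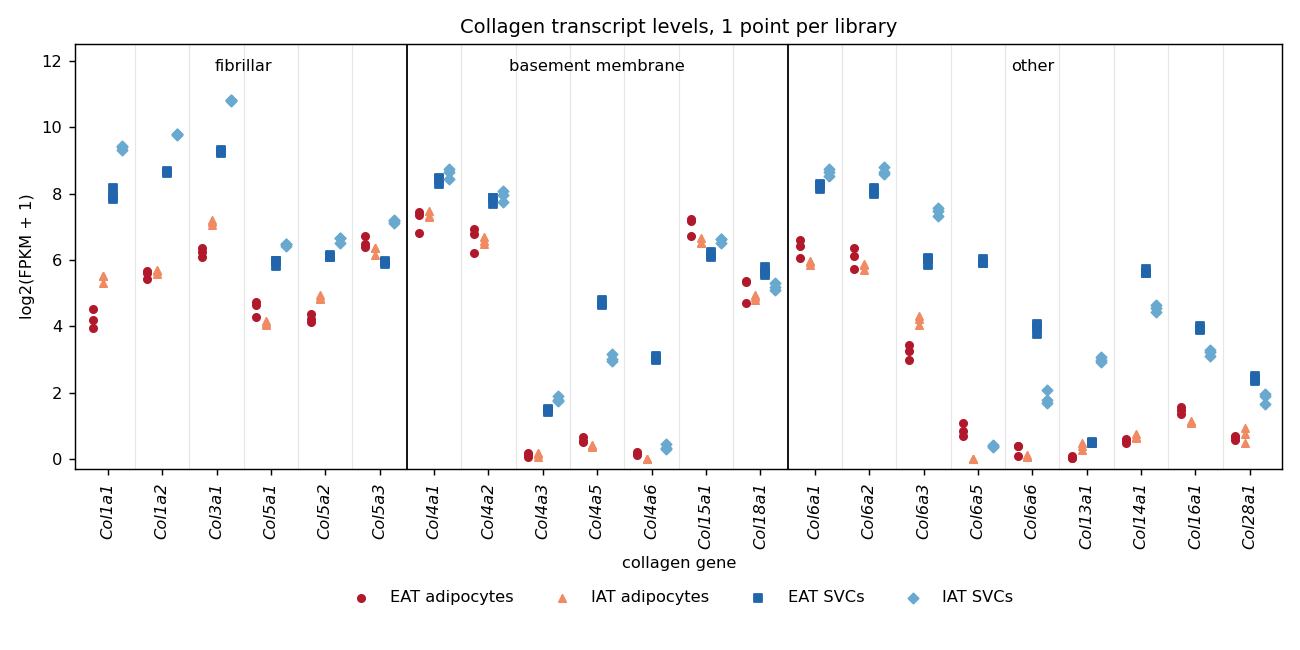
Level of the 22 collagen genes given in full, as log2(FPKM + 1) on the vertical axis, with 1 point for each library and the 4 groups side by side within each gene. Col3a1 in IAT SVCs is the highest, Col15a1 stays between 67.1 and 150.5 FPKM in all 12 libraries, and Col6a5 is high in EAT SVCs and near 0 in IAT SVCs.

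The fibrillar class was higher in inguinal than in epididymal stromal vascular cells. All 7 tested fibrillar chains were called higher in IAT SVCs and 0 lower, with a median difference of 1.13, where 40.2% of all features were called in either direction, 14.0% higher and 26.2% lower, and the median of all features was -0.06. The same 7 genes were called without replicate 1 of EAT adipocytes and under median-of-ratios scaling. In adipocytes 4 of the 7 were higher in IAT, 1 was lower and 2 were not called, with a median of 0.42 against -0.10 for all features. In that comparison 37.6% of all features were called, 10.3% higher and 27.3% lower.

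Col3a1, the chain of type III collagen that forms reticular fibres with type I (chr1:45311538-45349706), was the most abundant collagen in all SVC libraries. It stood at 1756, 1786 and 1787 FPKM in IAT SVCs and at 628, 607 and 599 FPKM in EAT SVCs. The depots lay far apart, and Col3a1 ranked 40 among all features by its mean in IAT SVCs and 127 in EAT SVCs. The difference was 1.54 ± 0.086 (adjusted p = 2.0e-08), a 2.90-fold ratio of mean FPKM. In adipocytes it was at 141, 131 and 146 FPKM in IAT and 74.7, 66.9 and 81.7 FPKM in EAT, again without overlap, a difference of 0.90 ± 0.086 (adjusted p = 5.6e-06).

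Col1a1 (chr11:94936270-94951856) and Col1a2 (chr6:4505697-4541543) encode the chains of type I collagen, the most abundant protein of tensile fibres. Col1a1 was at 679, 692 and 639 FPKM in IAT SVCs and 241, 284 and 226 FPKM in EAT SVCs, and at 44.7, 38.3 and 44.4 FPKM in IAT adipocytes and 14.5, 17.2 and 21.9 FPKM in EAT adipocytes. Inguinal libraries were higher in both fractions, with differences of 1.43 ± 0.13 in SVCs (adjusted p = 2.3e-06) and 1.22 ± 0.13 in adipocytes (adjusted p = 1.6e-05). Col1a2 was at 862, 894 and 885 FPKM in IAT SVCs and 404, 406 and 394 FPKM in EAT SVCs, a difference of 1.13 ± 0.077 (adjusted p = 1.2e-07). In adipocytes the depots overlapped, with Col1a2 at 49.5, 46.8 and 50.7 FPKM in IAT and 42.2, 47.5 and 50.3 FPKM in EAT (0.07 ± 0.077, adjusted p = 0.504), so that the 2 chains of type I collagen parted there. Under median-of-ratios scaling Col1a2 passed the threshold in adipocytes at 0.21 (adjusted p = 0.0483). The depot difference of Col1a2 in adipocytes minus that in SVCs was -1.06 ± 0.11 (adjusted p = 1.0e-05), and that of Col1a1 was -0.21 ± 0.19 (adjusted p = 0.438).

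Type V collagen is a minor chain set that joins type I fibres and limits their width, and its 3 chains differed in their cell fraction. Col5a1 (chr2:27886425-28039510) was at 88.8, 84.4 and 87.9 FPKM in IAT SVCs, 61.0, 61.1 and 55.5 FPKM in EAT SVCs, 15.5, 16.1 and 17.1 FPKM in IAT adipocytes and 18.4, 24 and 25.9 FPKM in EAT adipocytes. It was higher in IAT among SVCs (0.55 ± 0.10, adjusted p = 0.001) and lower in IAT among adipocytes (-0.45 ± 0.10, adjusted p = 0.00475). Col5a2 (chr1:45374331-45503282) was at 100.4, 90.2 and 99.5 FPKM in IAT SVCs, 70.6, 67.2 and 67.0 FPKM in EAT SVCs, 27.4, 27.9 and 29.5 FPKM in IAT adipocytes and 16.7, 17.5 and 19.6 FPKM in EAT adipocytes. It was higher in IAT in both fractions, by 0.50 ± 0.074 in SVCs (adjusted p = 1.7e-04) and 0.63 ± 0.074 in adipocytes (adjusted p = 3.4e-05).

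Col5a3 (chr9:20770050-20815034), the third type V chain, was the fibrillar gene with the highest level in adipocytes relative to SVCs. It was at 82.2, 88.8 and 105 FPKM in EAT adipocytes and 61.4, 59.8 and 58.2 FPKM in EAT SVCs, higher in adipocytes by 0.61 ± 0.092 (adjusted p = 4.1e-05). In the inguinal depot the order was turned, with 80.9, 70.4 and 80.4 FPKM in adipocytes and 145, 137 and 144 FPKM in SVCs, a difference of -0.87 ± 0.092 (adjusted p = 1.3e-06). Among SVCs Col5a3 was 2.37-fold higher in IAT (1.23 ± 0.092, adjusted p = 3.0e-07). Among adipocytes it missed the threshold (-0.24 ± 0.092, adjusted p = 0.0531), although the depots did not overlap, and passed it without replicate 1 of EAT adipocytes at -0.32 (adjusted p = 0.00645). The remaining tested fibrillar gene, Col27a1, had means of 2.70 and 1.63 FPKM in IAT and EAT SVCs and 0.424 and 0.0662 FPKM in adipocytes, higher in IAT in both fractions.

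In the basement membrane class the main type IV chains Col4a1 and Col4a2 did not pass the test between the depots. Col4a5, Col4a6 and Col18a1 were lower and Col4a3 and Col15a1 higher in IAT SVCs, with 3 of the 8 genes not called and a median of 0.07, where 14.0% of all features were higher and 26.2% lower. In adipocytes 0 were higher, 2 lower and 6 not called, with a median of -0.12, where 10.3% of all features were higher and 27.3% lower, and 4 were lower without replicate 1 of EAT adipocytes (Col4a2, Col4a6, Col15a1 and Col18a1).

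Col4a1 (chr8:11198423-11312826) and Col4a2 (chr8:11312829-11449287) form the type IV collagen found in nearly all basement membranes. Col4a1 was at 422, 346 and 403 FPKM in IAT SVCs, 355, 343 and 308 FPKM in EAT SVCs, 160.3, 157 and 178 FPKM in IAT adipocytes and 112, 163 and 174 FPKM in EAT adipocytes. Col4a2 was at 267, 213 and 249 FPKM, 234, 234 and 206 FPKM, 93.3, 89.1 and 103 FPKM, and 73.4, 109 and 122 FPKM in the same order of groups. The depots overlapped for both genes in both fractions. The differences between depots were 0.22 ± 0.15 (adjusted p = 0.263) and 0.11 ± 0.16 (adjusted p = 0.632) in SVCs, and 0.17 ± 0.15 (adjusted p = 0.402) and -0.06 ± 0.16 (adjusted p = 0.789) in adipocytes, for Col4a1 and Col4a2. Without replicate 1 of EAT adipocytes Col4a1 was called in SVCs at 0.22 (adjusted p = 0.0498) and Col4a2 in adipocytes at -0.28 (adjusted p = 0.0375).

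Col4a5 (chrX:141475419-141689235) and Col4a6 (chrX:141165403-141474076) encode chains of a second type IV network with a narrower distribution. Col4a5 was at 26.5, 24 and 24.4 FPKM in EAT SVCs and 7.06, 6.84 and 8.01 FPKM in IAT SVCs. Col4a6 was at 7.01, 7.55 and 7.11 FPKM in EAT SVCs and 0.246, 0.275 and 0.372 FPKM in IAT SVCs. Epididymal SVCs were above inguinal SVCs in every library for both genes, with differences of -1.65 ± 0.075 (adjusted p = 2.9e-09) for Col4a5 and -2.66 ± 0.058 (adjusted p = 3.8e-12) for Col4a6. In adipocytes Col4a5 was at 0.435, 0.583 and 0.454 FPKM in EAT and 0.308, 0.297 and 0.346 FPKM in IAT (-0.18 ± 0.075, adjusted p = 0.0831). Col4a6 was at 0.0918, 0.153 and 0.170 FPKM in EAT adipocytes and 0.00621, 0 and 0.00545 FPKM in IAT adipocytes (-0.18 ± 0.058, adjusted p = 0.0283), and this call was lost without replicate 2 or 3 of EAT adipocytes or any of the IAT adipocyte libraries (-0.16 to -0.18, adjusted p = 0.0727 to 0.0988) and with a pseudocount of 5 (-0.04, adjusted p = 0.23). The 2 other type IV chains, of the kidney and lung type, were low. Col4a3 was at 2.38, 2.45 and 2.71 FPKM in IAT SVCs and 1.85, 1.81 and 1.70 FPKM in EAT SVCs (0.33 ± 0.061, adjusted p = 7.7e-04), a call lost with a pseudocount of 0.1 (0.47, adjusted p = 0.0796), and at 0.0524 to 0.151 FPKM in adipocytes. Col4a4 had means of 2.56 and 2.49 FPKM in IAT and EAT SVCs and was not called between the depots.

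Col15a1 (chr4:47208012-47313165) and Col18a1 (chr10:77052179-77166530) encode the multiplexins, collagens that carry sugar chains and anchor basement membranes to the matrix around them. Col15a1 was at 104, 142 and 150.5 FPKM in EAT adipocytes, 90.7, 91.0 and 101 FPKM in IAT adipocytes, 75.2, 70.7 and 67.1 FPKM in EAT SVCs and 98.0, 89.6 and 97.5 FPKM in IAT SVCs. It was lower in IAT among adipocytes (-0.47 ± 0.12, adjusted p = 0.0083) and higher in IAT among SVCs (0.42 ± 0.12, adjusted p = 0.0137). The SVC call was lost with values rescaled to a common sum per library (0.31, adjusted p = 0.158) and without replicate 3 of EAT SVCs (0.38, adjusted p = 0.0557). Col18a1 was at 25.3, 39.7 and 40.6 FPKM in EAT adipocytes, 26.8, 28.3 and 29.9 FPKM in IAT adipocytes, 48.4, 53.7 and 45.9 FPKM in EAT SVCs and 38.6, 33.1 and 35.3 FPKM in IAT SVCs. It was lower in IAT SVCs (-0.46 ± 0.15, adjusted p = 0.0249), a call lost without replicate 1 or 2 of EAT SVCs or replicate 2 or 3 of IAT SVCs (-0.40 to -0.47, adjusted p = 0.058 to 0.0922) and under median-of-ratios scaling (-0.35, adjusted p = 0.0583), and its adipocyte values overlapped (-0.28 ± 0.15, adjusted p = 0.158). Without replicate 1 of EAT adipocytes that difference was called at -0.49 (adjusted p = 0.00041).

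Type VI collagen joins the products of Col6a1 and Col6a2 with that of Col6a3 or of the related genes Col6a4, Col6a5 and Col6a6. In IAT SVCs, 3 of the 5 tested genes were higher (Col6a1, Col6a2 and Col6a3) and 2 lower (Col6a5 and Col6a6), where 14.0% of all features were higher and 26.2% lower. Col6a1 (chr10:76708792-76726044) was at 422, 367 and 398 FPKM in IAT SVCs and 303, 312 and 278 FPKM in EAT SVCs, and at 60.5, 56.1 and 62.2 FPKM in IAT and 65.7, 85.5 and 95.4 FPKM in EAT adipocytes. Col6a2 (chr10:76595756-76623404) was at 444, 385 and 403 FPKM, 269, 289 and 251 FPKM, 56.9, 50.5 and 57.9 FPKM, and 52.1, 68.5 and 80.8 FPKM in the same order. Both were higher in IAT SVCs, by 0.41 ± 0.12 (adjusted p = 0.0155) and 0.60 ± 0.13 (adjusted p = 0.003). In adipocytes Col6a1 was lower in IAT (-0.44 ± 0.12, adjusted p = 0.0117) and Col6a2 overlapped between the depots (-0.26 ± 0.13, adjusted p = 0.146). The Col6a1 calls were lost in SVCs without replicate 3 of EAT SVCs (0.36, adjusted p = 0.0639) or replicate 1 of IAT SVCs (0.36, adjusted p = 0.0593), and in adipocytes without replicate 3 of EAT adipocytes (-0.33, adjusted p = 0.0548). They were also lost in SVCs with values rescaled to a common sum (0.30, adjusted p = 0.157) and in adipocytes under median-of-ratios scaling (-0.30, adjusted p = 0.0582). Without replicate 1 of EAT adipocytes, Col6a2 was lower in IAT adipocytes at -0.43 (adjusted p = 0.00281).

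Col6a3 (chr1:90766860-90843971), the usual partner of these chains, whose cleaved end is released from adipose tissue, was higher in IAT in both fractions. It was at 178, 159 and 188 FPKM in IAT SVCs, 65.3, 63.9 and 56.1 FPKM in EAT SVCs, 17.7, 15.6 and 18.8 FPKM in IAT adipocytes and 7.01, 8.67 and 9.96 FPKM in EAT adipocytes. The depots did not overlap in either fraction, and the differences were 1.49 ± 0.12 in SVCs (adjusted p = 4.6e-07) and 0.95 ± 0.12 in adipocytes (adjusted p = 4.4e-05).

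Col6a5 (chr9:105856070-105960643) had the widest depot difference of the tested collagens. It was at 64.4, 59.5 and 59.0 FPKM in EAT SVCs and at 0.291, 0.325 and 0.360 FPKM in IAT SVCs, where the estimated number of fragments was at least 68 in a library. Epididymal SVCs thus held as much Col6a5 as Col6a3, with a ratio of 0.932 to 1.05, and inguinal SVCs a ratio of 0.00163 to 0.00204. The difference was -5.55 ± 0.087 (adjusted p = 3.3e-13). In adipocytes Col6a5 was at 0.626, 1.12 and 0.813 FPKM in EAT and 0.00881, 0.0141 and 0.0116 FPKM in IAT (-0.86 ± 0.087, adjusted p = 8.6e-06). Its neighbour Col6a6 (chr9:105689417-105828085) was at 15.7, 15.2 and 12.8 FPKM in EAT SVCs and 2.44, 2.21 and 3.24 FPKM in IAT SVCs (-2.11 ± 0.12, adjusted p = 1.6e-08). In adipocytes Col6a6 was at 0.0667, 0.316 and 0.308 FPKM in EAT and 0.0465, 0.0556 and 0.0917 FPKM in IAT, with overlap (-0.20 ± 0.12, adjusted p = 0.190). Without replicate 1 of EAT adipocytes Col6a6 was called lower in IAT adipocytes. Col6a4 did not pass the filter, with a mean of 0.187 FPKM in EAT SVCs and 0.0466 FPKM in IAT SVCs.

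The collagens outside these classes were less abundant in adipocytes and SVCs than the main chains above. Of the 8 tested, Col8a2, Col14a1, Col16a1 and Col28a1 were lower in IAT SVCs, Col13a1 and Col23a1 higher, and Col8a1 and Col12a1 not called. Of all features 26.2% were lower and 14.0% higher there. Col14a1 (chr15:55307750-55520803) encodes a fibril-associated collagen that coats type I fibres. It was at 51.8, 47.8 and 48.2 FPKM in EAT SVCs and 22.6, 20.5 and 23.9 FPKM in IAT SVCs (-1.11 ± 0.075, adjusted p = 1.1e-07), and at 0.400, 0.516 and 0.506 FPKM in EAT and 0.596, 0.562 and 0.686 FPKM in IAT adipocytes (0.13 ± 0.075, adjusted p = 0.188). The adipocyte difference passed the threshold with a pseudocount of 0.1 (0.32, adjusted p = 0.0326) and under median-of-ratios scaling (0.20, adjusted p = 0.0449). Col16a1 (chr4:130047840-130099277), of the same group, was at 13.9, 15.1 and 14.2 FPKM in EAT SVCs, 8.74, 8.34 and 7.60 FPKM in IAT SVCs, 1.78, 1.56 and 1.95 FPKM in EAT adipocytes and 1.14, 1.22 and 1.18 FPKM in IAT adipocytes. It was lower in IAT in both fractions, by -0.74 ± 0.076 in SVCs (adjusted p = 5.8e-06) and -0.34 ± 0.076 in adipocytes (adjusted p = 0.00403).

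Col28a1 (chr6:7997808-8192617), a collagen described around peripheral glia, was at 4.65, 4.34 and 4.11 FPKM in EAT SVCs and 2.73, 2.16 and 2.87 FPKM in IAT SVCs (-0.59 ± 0.11, adjusted p = 8.1e-04). In adipocytes the depots overlapped, at 0.505, 0.630 and 0.605 FPKM in EAT and 0.912, 0.411 and 0.688 FPKM in IAT (0.07 ± 0.11, adjusted p = 0.645). Col13a1 (chr10:61838234-61979108), a collagen with a membrane anchor, was at 7.43, 6.54 and 6.98 FPKM in IAT SVCs and 0.444, 0.397 and 0.406 FPKM in EAT SVCs. This was a 16.8-fold ratio of means in favour of the inguinal depot, with a difference of 2.49 ± 0.068 (adjusted p = 2.7e-11). In adipocytes it was at 0.413, 0.313 and 0.209 FPKM in IAT and 0.0236, 0.0766 and 0.0303 FPKM in EAT (0.33 ± 0.068, adjusted p = 0.00262), and this call was lost with a pseudocount of 5 (0.07, adjusted p = 0.0589). Col8a2, a short-chain collagen of basement membrane lattices, had means of 1.76 FPKM in EAT SVCs and 0.0864 FPKM in IAT SVCs (-1.35 ± 0.055, adjusted p = 1.0e-09), while its partner Col8a1 had 6.26 and 6.36 FPKM and was not called. Col12a1, another coat of type I fibres, had means of 0.539 FPKM in EAT and 0.210 FPKM in IAT adipocytes, lower in IAT (-0.35 ± 0.070, adjusted p = 0.00211), and was not called in SVCs.

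Over all 28 tested collagens, 14 were higher, 9 lower and 5 not called in IAT against EAT SVCs, and 6 were higher, 8 lower and 14 not called in IAT against EAT adipocytes. Without replicate 1 of EAT adipocytes the adipocyte counts were 6 higher and 13 lower. Of all features 14.0% were higher and 26.2% lower in SVCs, and 10.3% and 27.3% in adipocytes, so the 8 lower in adipocytes lay near the share of all features. Col1a1, Col3a1, Col5a2, Col6a3, Col13a1 and Col27a1 were called higher in IAT in both fractions. Col4a6, Col6a5 and Col16a1 were called lower in IAT in both, and Col5a1, Col6a1, Col15a1 and Col23a1 were lower in IAT adipocytes and higher in IAT SVCs. The share of all features with such calls in both fractions was not counted. All-feature counts in these comparisons shift with the scaling. Median-of-ratios scaling turned 1363 higher and 3597 lower features into 2129 and 2195 in adipocytes, and 1843 and 3458 into 2413 and 2463 in SVCs, while the collagen counts became 8 higher and 7 lower in adipocytes and 14 and 8 in SVCs.

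Markers of other cell types differed between the depots as well. All 8 mesothelial markers, which mark the lining of visceral fat, were lower in IAT in both fractions, and their sum was 429.8 to 500.4 FPKM in EAT SVCs, 1.76 to 2.78 FPKM in IAT SVCs, 18.8 to 21.6 FPKM in EAT adipocytes and 0.504 to 0.617 FPKM in IAT adipocytes. Wt1 was at 0 in all IAT SVC libraries and Upk1b at 0 in all IAT adipocyte libraries. These markers moved in the direction of the 9 collagens lower in IAT SVCs (Col4a5, Col4a6, Col6a5, Col6a6, Col8a2, Col14a1, Col16a1, Col18a1 and Col28a1). Of these, only Col4a6, Col6a5 and Col16a1 were also called lower in IAT adipocytes. The part of mesothelial cells in those results was not tested. In the other direction, all 6 Schwann cell markers were higher in IAT in both fractions, with sums of 12.4 to 12.7 FPKM in EAT SVCs and 139 to 183 FPKM in IAT SVCs, and of 7.12 to 10.1 FPKM in EAT and 36.4 to 45.3 FPKM in IAT adipocytes, and Sox10 was at 0 in EAT adipocytes. Lymphocyte markers rose in IAT SVCs in 8 of 9 cases, from sums of 73.7 to 79.8 FPKM to sums of 288 to 445 FPKM, with 1.95 to 7.68 FPKM in adipocytes. Skeletal muscle markers rose there in all 5 tested of 6, from 9.25 to 9.83 FPKM to 68.8 to 82.1 FPKM, with 17.2 to 38.5 FPKM in adipocytes. Most of the muscle sum in adipocytes was Acta1, with means of 33.1 FPKM in EAT and 24.8 FPKM in IAT. Progenitor and fibroblast markers did not rise together in IAT SVCs, with 3 of 10 higher and 6 lower and sums of 4641 to 4829.9 FPKM against 5150.1 to 5802 FPKM. All 8 adipocyte markers (104 to 123 against 230.5 to 267 FPKM) and 6 of 10 endothelial markers were also higher in IAT SVCs, 7 of 9 macrophage markers were lower there, and 9 of 9 were lower in IAT adipocytes. In IAT adipocytes, 5 of 10 progenitor and fibroblast markers were higher and 1 lower, with Pi16 at 7.5 against 0.909 FPKM and Ly6a at 62.2 against 30.2 FPKM in EAT, and 5 of 10 endothelial markers were higher. The part of these cells in the fibrillar levels of IAT adipocytes was not tested. The part of these cells in the higher Col13a1 and fibrillar levels of IAT SVCs was not tested.

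**Figure D3:**
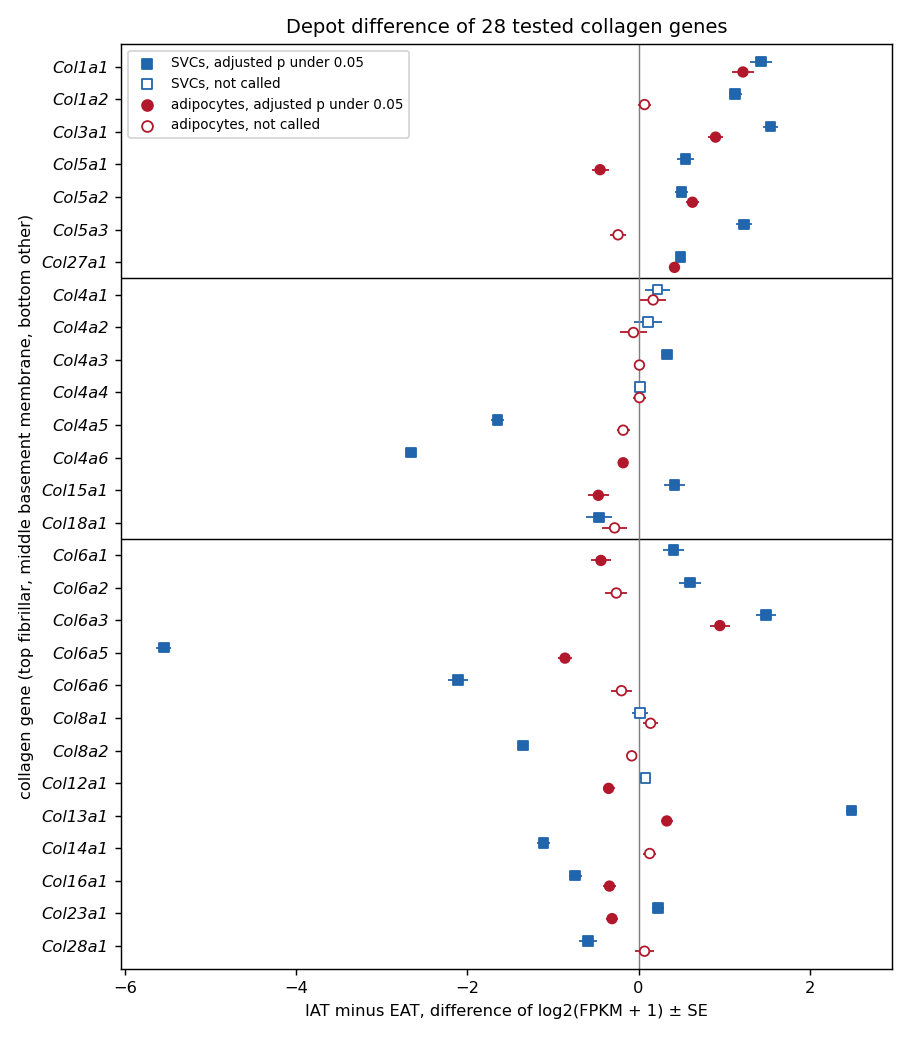
Depot difference (IAT minus EAT, log2(FPKM + 1), with SE) of the 28 tested collagen genes in SVCs (squares) and adipocytes (circles), with filled marks where the adjusted p is under 0.05. All 7 fibrillar genes lie to the right in SVCs, and Col6a5 lies farthest to the left at -5.55 in SVCs and -0.86 in adipocytes.

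The depot difference itself differed between the fractions for 20 of the 28 collagens, where 32.5% of all features were called. The difference in adipocytes was above that in SVCs for 8 genes (14.7% of all features) and below it for 12 (17.8%). Without replicate 1 of EAT adipocytes it was above for 8 and below for 13, with Col4a2 added to those below. Those above were genes that fell in inguinal SVCs and had at most 1.95 FPKM in any adipocyte library, led by Col6a5 at 4.68 ± 0.12 (adjusted p = 8.5e-11) and Col4a6 at 2.48 ± 0.082 (adjusted p = 6.3e-10). Those below included 4 fibrillar genes and the 3 abundant type VI chains, led by Col13a1 at -2.17 ± 0.097 (adjusted p = 5.8e-09) and Col5a3 at -1.48 ± 0.13 (adjusted p = 2.7e-06). Low adipocyte values are compressed on the log2(FPKM + 1) scale, so these differences do not compare fold changes. The EAT to IAT ratio of mean FPKM for Col4a6 was 35.6 in adipocytes and 24.3 in SVCs. For Col6a5 it was 74.2 and 187. Col27a1, not called here (-0.07), had IAT to EAT ratios of 6.41 in adipocytes and 1.66 in SVCs.

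Most collagens were lower in adipocytes than in the SVCs of the same depot. In EAT 25 of 28 were lower, 3 higher and 0 not called, where 83.8% of all features were called, 52.7% lower and 31.1% higher. In IAT 24 were lower, 0 higher and 4 not called, where 83.7% of all features were called, 53.9% lower and 29.8% higher. The collagen medians were -1.81 in EAT and -1.72 in IAT, beside -0.31 and -0.34 for all features, and 23 genes were lower in both depots. Median-of-ratios scaling moved the medians of all features to 0.03 and 0.02 and their split from 4093 higher and 6948 lower to 5544 and 5314 in EAT, and from 3921 and 7107 to 5524 and 5316 in IAT. Under it 3 collagens were higher and 24 lower in EAT, and 2 were higher (Col15a1 and Col23a1) and 24 lower in IAT.

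The 3 genes higher in EAT adipocytes than in EAT SVCs were Col5a3, Col15a1 and Col23a1. Col15a1 in EAT adipocytes was at 186% of its SVC mean, a difference of 0.87 ± 0.12 (adjusted p = 1.5e-05), and in IAT at 99.1%, where the fractions overlapped (-0.01 ± 0.12, adjusted p = 0.922). Col23a1, a collagen with a membrane anchor, had means of 1.65 FPKM in EAT adipocytes and 0.765 FPKM in EAT SVCs (0.59 ± 0.070, adjusted p = 4.2e-06) and of 1.14 and 1.06 FPKM in IAT. Col4a1 and Col4a2 were at 44.7% and 45.3% of the SVC level in EAT adipocytes and at 42.3% and 39.2% in IAT, lower in adipocytes by 1.16 to 1.34 on the log2 scale. Col18a1 was at 71.4% and 79.4%, lower in EAT adipocytes (-0.50 ± 0.15, adjusted p = 0.00631) and not called in IAT (-0.32 ± 0.15, adjusted p = 0.0565). The EAT call of Col18a1 was lost under median-of-ratios scaling at -0.12 (adjusted p = 0.415), and without replicate 1 of EAT adipocytes the IAT difference of -0.32 was called (adjusted p = 0.00109).

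Fibrillar chains of types I and III, and Col14a1, Col4a5, Col6a5 and Col6a6, reached only small percentages. Other chains lay between, with Col5a1 at 38.5% of the SVC mean in EAT adipocytes and 18.6% in IAT. In the same order Col5a2 was at 26.3% and 29.2%, Col6a1 at 27.6% and 15.1%, Col6a2 at 24.9% and 13.4% and Col12a1 at 43.6% and 15.4%. Col1a1 was at 7.15% of the SVC mean in EAT adipocytes and 6.34% in IAT, Col1a2 at 11.6% and 5.56%, and Col3a1 at 12.2% and 7.85%. The log2 differences of these 3 genes ran from -3.03 to -4.14, with adjusted p-values of 2.6e-11 or less. Col14a1 was at 0.962% and 2.75%, Col4a5 at 1.97% and 4.34%, Col6a5 at 1.40% and 3.53% and Col6a6 at 1.58% and 2.46%. These stood beside the 10 progenitor and fibroblast markers, whose adipocyte level had a median of 2.11% of the SVC level in EAT (0.84 to 8.28%) and 3.27% in IAT (2.36 to 8.57%). Endothelial markers, which summed to 187 to 280.2 FPKM in adipocytes and 999.6 to 1339.6 FPKM in SVCs, had medians of 17.5% in EAT (4.18 to 24.9%) and 19.1% in IAT (2.44 to 30.5%). Macrophage markers had medians of 13.8% (10.7 to 63.4%) and 4.01% (3.47 to 44.1%), with Mertk the highest. Mural markers had medians of 14.9% (7.02 to 488%) and 17.2% (3.11 to 381%), with Mcam the highest. Col4a1, Col4a2, Col5a3, Col15a1, Col18a1 and Col23a1 were above the highest progenitor and endothelial marker in both depots, Col4a1 and Col4a2 were below Mertk in both, and all 6 were below Mcam in both. The part of stromal RNA in the adipocyte values of collagens was not tested.

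**Figure D4:**
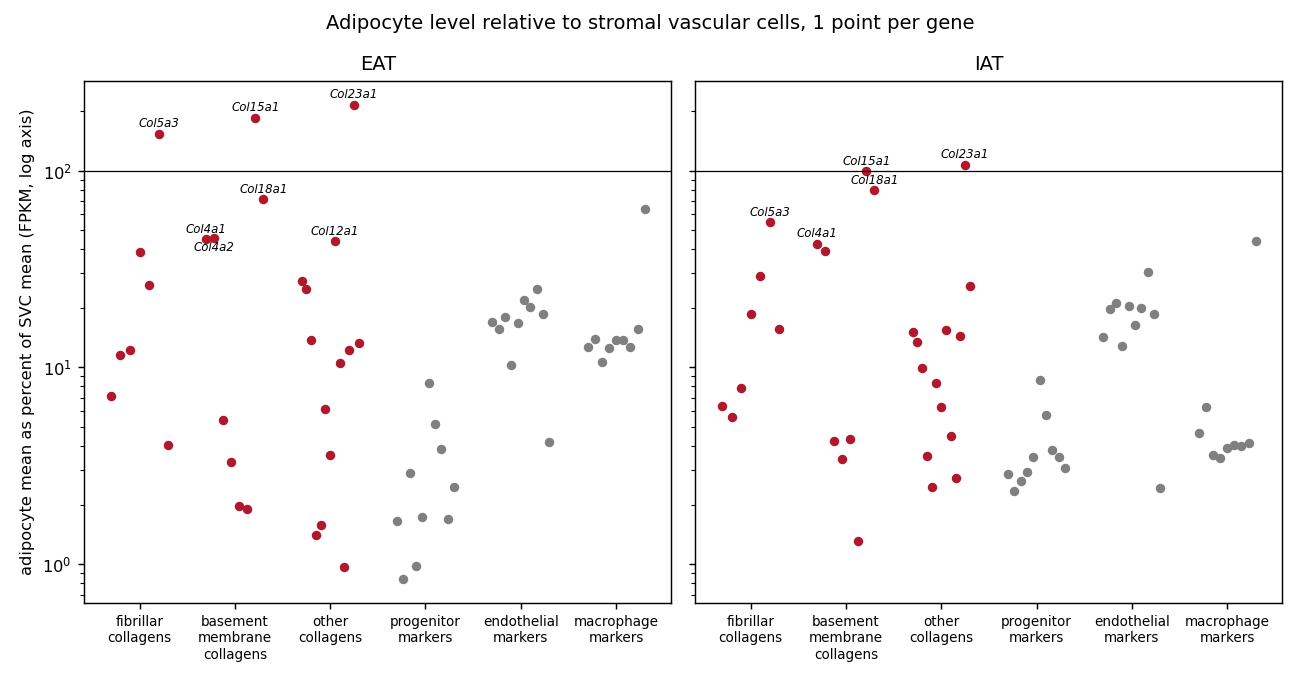
Mean FPKM in adipocytes as a percentage of the mean in SVCs of the same depot (log axis), with 1 point for each tested collagen gene (red) and each marker of progenitors, endothelial cells and macrophages (grey). Col5a3, Col15a1 and Col23a1 lie above 100% in EAT, and in IAT Col23a1 is at 107% and Col15a1 at 99.1%.

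Ratios between chains are given as values per library with no test. Those of low chains spread widely within groups, such as Col4a3 to Col4a4 at 0.754 to 1.58 in EAT and 0.622 to 1.60 in IAT adipocytes, and Col4a5 to Col4a6 at 2.67 to 4.74 in EAT adipocytes. Col1a1 to Col1a2 was 0.343, 0.363 and 0.436 in EAT adipocytes, 0.903, 0.818 and 0.877 in IAT adipocytes, 0.596, 0.698 and 0.572 in EAT SVCs and 0.787, 0.775 and 0.722 in IAT SVCs. EAT adipocytes thus had the lowest ratio and IAT adipocytes the highest, with no overlap between any groups. Col6a3 to Col6a1 was 0.101 to 0.107 in EAT adipocytes, 0.202 to 0.216 in EAT SVCs, 0.278 to 0.302 in IAT adipocytes and 0.422 to 0.472 in IAT SVCs. Col5a3 to Col5a1 was 3.69 to 5.21 in adipocytes of either depot, 1.62 to 1.64 in IAT SVCs and 0.980 to 1.05 in EAT SVCs. Col4a1 to Col4a2, by contrast, kept to 1.42 to 1.77 in all 12 libraries, and Col6a1 to Col6a2 to 0.949 to 1.26. The ratio of Col4a1 to Col1a1, basement membrane to fibril, was 7.75 to 9.44 in EAT adipocytes, 3.59 to 4.12 in IAT adipocytes, 1.21 to 1.47 in EAT SVCs and 0.50 to 0.631 in IAT SVCs.

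**Figure D5:**
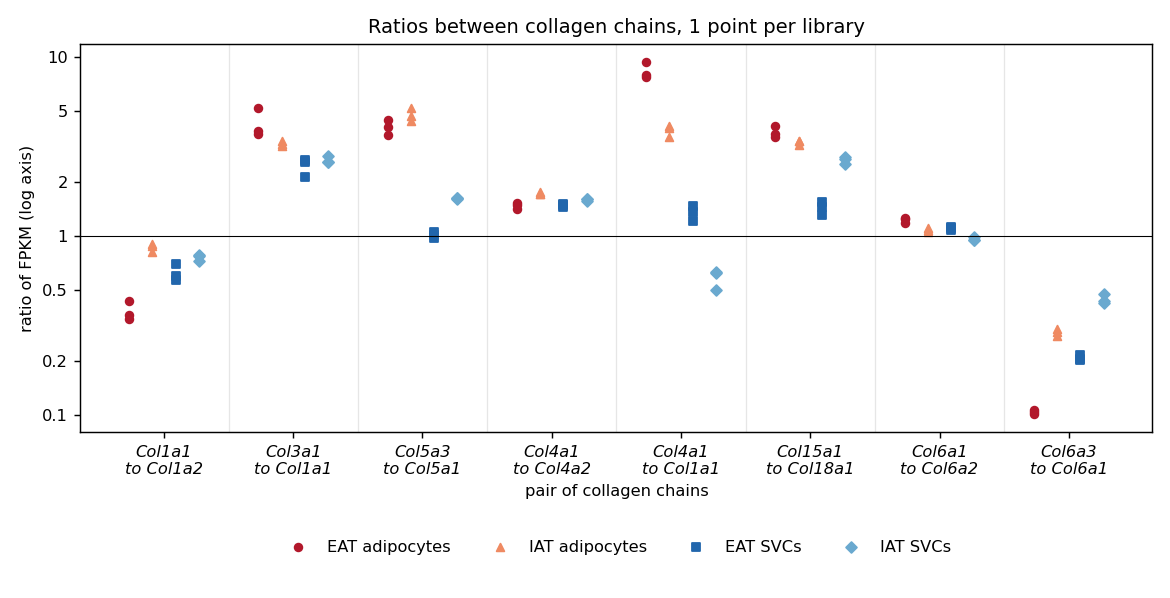
Ratio of FPKM between pairs of collagen chains (log axis), with 1 point for each library. Col4a1 to Col4a2 lies between 1.42 and 1.77 everywhere, while Col4a1 to Col1a1 spans from 0.50 in IAT SVCs to 9.44 in EAT adipocytes.

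Several collagen genes lie next to each other, and neighbours differed in how alike their values were. Col4a1 and Col4a2 lie on opposite strands of chromosome 8 of GRCm38 and run outward from adjoining starts. Their deposited loci are 2 bases apart, their gene models share exon bases in GENCODE, and neither was called between the depots. Col4a5 and Col4a6 also point away from each other, with 1342 bases between them on chromosome X, and both fell in inguinal SVCs. Col6a5 and Col6a6 lie on the same strand of chromosome 9 with 27984 bases between them, and both fell in inguinal SVCs too, while Col6a4, 29674 bases from Col6a5, was under the filter. Col4a3 and Col4a4 have 71 bases between them on chromosome 1, and only Col4a3 was called between the SVC depots. Col3a1 and Col5a2, 24624 bases apart on chromosome 1, were both higher in IAT in both fractions.

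The stretches before the starts of the neighbours that fell together, and the stretch shared by Col4a3 and Col4a4, are shown because the values bear on them. They are from RefSeq (GRCm38.p6), on the strand of the named gene, without bases annotated as UTR, and 35 of the 44 collagen genes had an entry. Capitals mark matches on either strand to the CCAAT box, to the TATA box in the form TATAAA, to the GC box in the form GGGCGG, which reads CCGCCC on the other strand, and to the E box in the form CAGCTG. No matches overlap. The Col6a5 stretch is chr9:105960644-105960893, the Col6a6 stretch chr9:105828161-105828335, the Col4a5 stretch chrX:141475169-141475384, the Col4a6 stretch chrX:141474077-141474326 and the stretch between Col4a4 and Col4a3 chr1:82586850-82586920, written on the minus strand.
Col6a5: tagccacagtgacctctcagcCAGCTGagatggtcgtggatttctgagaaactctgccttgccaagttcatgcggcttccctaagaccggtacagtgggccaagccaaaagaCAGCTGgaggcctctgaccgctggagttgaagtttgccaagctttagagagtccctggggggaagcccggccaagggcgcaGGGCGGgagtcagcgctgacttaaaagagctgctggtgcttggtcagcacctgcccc
Col6a6: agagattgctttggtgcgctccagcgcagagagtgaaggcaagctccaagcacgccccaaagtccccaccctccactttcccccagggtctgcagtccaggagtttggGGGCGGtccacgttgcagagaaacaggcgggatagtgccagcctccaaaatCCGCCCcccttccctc
Col4a5: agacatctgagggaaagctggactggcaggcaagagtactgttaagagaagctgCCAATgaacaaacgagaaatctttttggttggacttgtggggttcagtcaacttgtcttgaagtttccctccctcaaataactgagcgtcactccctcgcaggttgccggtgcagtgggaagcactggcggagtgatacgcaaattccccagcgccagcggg
Col4a6: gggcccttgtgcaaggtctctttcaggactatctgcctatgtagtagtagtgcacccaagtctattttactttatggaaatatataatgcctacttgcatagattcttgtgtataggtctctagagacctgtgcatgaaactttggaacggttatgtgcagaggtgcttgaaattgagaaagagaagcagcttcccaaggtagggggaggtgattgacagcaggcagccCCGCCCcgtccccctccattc
Col4a4 to Col4a3: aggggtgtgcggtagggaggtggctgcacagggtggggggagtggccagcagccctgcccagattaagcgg

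Col6a5 and Col6a6 shared GGGCGG, with 1 copy beginning 57 bases before the start of Col6a5 and 2 copies beginning 142 and 91 bases before that of Col6a6. This motif lies in 32.7% of 32851 RefSeq stretches of the same 250 bases and in 20.2% of the shorter stretch used for Col6a6. Col6a5 also held 2 copies of CAGCTG, 229 and 138 bases before its start, a motif in 13.0% of stretches. Col4a6 held GGGCGG 21 bases before its start and Col4a5 held CCAAT 196 bases before, a motif in 30.5% of stretches of that length. The pair shared no motif within the stretches searched. The Col4a5 stretch ends 35 bases before its start and the Col6a6 stretch 76 bases before. The bases nearer these starts were not searched, so a shared motif there would be missed. The 71 bases between Col4a4 and Col4a3 held none of the 4, and the matches are letters in a window, with no measurement of binding in these data.

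Genes that process collagen were taken from lists by role, and their depot differences ran only in part with those of the fibrillar chains. Of 20 genes for folding and hydroxylation in the endoplasmic reticulum, 19 were tested, and 2 were higher and 6 lower in IAT SVCs and 0 higher and 9 lower in IAT adipocytes. Over all features 14.0% were higher and 26.2% lower in IAT SVCs, and 10.3% and 27.3% in IAT adipocytes. The 2 that rose in IAT SVCs were P4ha2, a prolyl hydroxylase (means of 19.6 and 13.9 FPKM, 0.47 ± 0.069), and Creb3l1, a transcription factor of collagen secretion (39.9 and 32.7 FPKM, 0.28 ± 0.092). Plod2, the lysyl hydroxylase of the chain ends, fell from 14.3 ± 1.72 FPKM in EAT SVCs to 5.34 ± 0.741 FPKM (SD, n = 3) in IAT SVCs (-1.27 ± 0.11, adjusted p = 1.4e-06). Of 8 genes for propeptide cleavage, 6 were tested, with 2 higher and 2 lower in IAT SVCs and 2 higher and 1 lower in IAT adipocytes. Those higher were Pcolce and Pcolce2 in both fractions. Adamts2 (25.1 against 36.0 FPKM, -0.50 ± 0.10) and Adamts14 were lower in IAT SVCs. Bmp1 was lower in IAT adipocytes (5.18 against 8.63 FPKM, -0.63 ± 0.10). Pcolce, which enhances removal of the C-terminal propeptide of fibrillar collagens, was higher in IAT in both fractions, at 381 ± 30.7 against 126 ± 7.89 FPKM in SVCs (1.58 ± 0.083, adjusted p = 1.1e-08) and 32.4 ± 1.62 against 6.78 ± 0.522 FPKM in adipocytes (2.10 ± 0.083, adjusted p = 1.6e-09).

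Of the 6 crosslinking genes, 1 was higher and 3 lower in IAT SVCs and 3 higher and 1 lower in IAT adipocytes. The shares of all features, here and for the lists that follow, were 14.0% higher and 26.2% lower in SVCs and 10.3% and 27.3% in adipocytes. Lox, the lysyl oxidase that crosslinks fibrils, was higher in IAT in both fractions. Its means were 46.9 against 30.4 FPKM in SVCs (0.61 ± 0.080) and 20.9 against 12.3 FPKM in adipocytes (0.72 ± 0.080). The related Loxl1 (73.0 against 97.4 FPKM, -0.40 ± 0.11), Loxl3 and Loxl4 were lower in IAT SVCs. Loxl1 and Loxl2 were higher in IAT adipocytes. Pxdn, the peroxidase that crosslinks type IV collagen, was lower in IAT adipocytes (29.0 ± 3.65 against 41.5 ± 10.1 FPKM, -0.48 ± 0.16, adjusted p = 0.0364). Of 9 collagen receptors 7 were tested, with 1 higher and 4 lower in IAT SVCs and 1 higher and 3 lower in IAT adipocytes. Ddr1 and Ddr2, the receptor kinases for collagen, both fell in IAT SVCs, from 13.5 to 3.79 FPKM (-1.59 ± 0.14) and from 56.8 to 27.6 FPKM (-1.02 ± 0.10), and Mrc2, which takes up collagen fragments, rose from 14.9 to 23.2 FPKM (0.61 ± 0.082). All 11 partners of the basement membrane (laminins, nidogens and others) were tested, with 1 higher and 4 lower in IAT SVCs and 3 higher and 2 lower in IAT adipocytes. The one that rose in IAT SVCs was Sparc, a collagen chaperone outside cells, at 2065 ± 55.3 against 1365 ± 38.3 FPKM (0.60 ± 0.10, adjusted p = 4.2e-04).

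Against SVCs, these genes were mostly lower in adipocytes, like the collagens: 18 of 19 folding genes in each depot, 6 of 6 propeptide genes, 5 of 6 crosslinking genes, 6 of 7 receptors, and 9 of 11 basement membrane partners in EAT and 10 of 11 in IAT. Of all features 52.7% were lower in EAT and 53.9% in IAT. The exception among folding genes was Plod3, a lysyl hydroxylase that also adds the sugars of type IV and VI collagen, higher in adipocytes in both depots (43.5 against 31.0 FPKM in EAT, 0.48 ± 0.076, and 36.5 against 26.7 FPKM in IAT, 0.44 ± 0.076).

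The remaining 16 collagen genes did not pass the filter. They are 4 fibrillar genes (Col2a1, Col11a1, Col11a2 and Col24a1), 6 fibril-associated genes (Col9a1, Col9a2, Col9a3, Col19a1, Col20a1 and Col22a1), Col6a4, Col7a1, Col10a1, Col17a1, Col25a1 and Col26a1, many of them known from cartilage, skin or brain. Col20a1 and Col11a2 were the highest, at up to 0.800 and 0.742 FPKM. Col9a1, a cartilage chain, was listed at 0 in 10 libraries and at up to 0.0146 FPKM in EAT SVCs. Of all 44 genes, 13 share exon bases with another gene in GENCODE vM21, among them Col3a1, Col4a1 with Col4a2, Col4a3, Col5a1, Col6a6 and Col15a1. Whether the counting used strand is not given in the sources used here, so reads of such pairs may not be separated.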

How the data were processed

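RNA of 12 libraries (adipocytes and stromal vascular cells of 2 fat depots, 3 libraries in each of 4 groups) was sequenced by the authors. The deposited values are Cufflinks FPKM per gene, from TopHat alignments to GRCm38 (mm10), per the submitters' processing notes. The annotation, strand setting and versions are not given in the sources used here, and the depth was estimated from the confidence bounds deposited beside each FPKM, at 14.1 to 24.6 M fragments per library. The estimate takes the bounds to hold counting error only, which some values contradict. For Col6a3 it was as low as 1048 fragments in EAT adipocytes, at 7.01 to 9.96 FPKM. In IAT SVCs, at 159 to 188 FPKM, it was as low as 2228. The estimated fragments are therefore approximate. The tables held 24890 features with 24358 symbols, no pair of libraries was identical, and 9 features with a failed estimate in some library were left out of the tests.

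Values were tested as log2(FPKM + 1) with limma 3.58.1 in R 4.3.3, two-sided, with 4 group means, a trended prior and Benjamini-Hochberg adjustment over 13175 features, those that reached 1 FPKM in 3 or more libraries. The 5 comparisons were IAT against EAT in each fraction, adipocytes against SVCs in each depot, and the difference of the depot comparisons. The test was checked on simulated data. Tables came from pandas 2.3.3 and NumPy 2.4.6 under Python 3.11.15, and plots from matplotlib 3.10.9. Gene models came from GENCODE vM21 and promoter stretches from RefSeq (GRCm38.p6). The alternatives were pseudocounts of 0.1 and 5, no filter, a filter on a mean of at least 1 FPKM, and a prior without the trend. They also included rescaling to a common sum per library (TPM), median-of-ratios scaling and array weights. The others were fits of only the groups compared, a block on the replicate number and leaving out each library. The 22 genes given in full, the members and all gene and marker lists were chosen with earlier results of these data known.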

Additional observations from a re-analysis of the deposited data

Results flagged for a closer look

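Of the 22 collagens given in full, 17 were singled out because the depot difference in adipocytes differed from that in SVCs by the limma test of that difference. Of all features 32.5% were called in that test. Col4a3, Col4a6, Col13a1 and Col28a1 were given in full only because the same test called them, so the count of 17 was partly set by that choice. The difference between the fractions is given here as the adipocyte value minus the SVC value on the log2(FPKM + 1) scale, which compresses changes at low FPKM. It was above 0 for Col6a5 (4.68), Col4a6 (2.48), Col6a6 (1.91), Col4a5 (1.47), Col14a1 (1.24), Col28a1 (0.66) and Col16a1 (0.40), all lower in inguinal SVCs. It was below 0 for Col13a1 (-2.17), Col5a3 (-1.48), Col1a2 (-1.06), Col5a1 (-1.0), Col15a1 (-0.88), Col6a2 (-0.87), Col6a1 (-0.85), Col3a1 (-0.64), Col6a3 (-0.54) and Col4a3 (-0.32). The other tested collagens with such a difference were Col8a2 (1.27), Col12a1 (-0.42) and Col23a1 (-0.54). Col5a1, Col6a1 and Col15a1 were, of the 17, the genes with called depot differences of opposite sign in the fractions. The Col6a3 value missed the threshold without replicate 3 of EAT adipocytes, replicate 2 of IAT adipocytes, replicate 3 of EAT SVCs or replicate 1 or 3 of IAT SVCs (adjusted p = 0.0512 to 0.0658), with a pseudocount of 0.1 (-0.48, adjusted p = 0.0588) and by TPM (-0.43, adjusted p = 0.196). With a pseudocount of 0.1, Col4a3 (-0.41, adjusted p = 0.295) and Col16a1 (0.27, adjusted p = 0.173) missed it too, as did Col4a3 by TPM (-0.30, adjusted p = 0.151). With 3 libraries in a group, Dixon's test for a single outlying value was not run.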

How the results depend on the processing

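Over 22 named collagens, 5 comparisons and all alternatives, 2284 of 2357 values kept their direction and side of the threshold, 32 lost the call, 20 gained it and 21 changed sign, and 81 of 110 gene comparisons kept both in all alternatives run. The count of collagens lower in IAT adipocytes, 8, ranged from 6 to 13 with a library left out (13 without replicate 1 of EAT adipocytes), and was 5 with only the groups compared, where 15 members were tested. In IAT, 2 collagens were higher in adipocytes than in SVCs under median-of-ratios scaling, and 38 were lower with no filter, where all 44 were tested. Values that changed sign were of uncalled comparisons. In the adipocyte depot comparison these were Col28a1 (0.00 with array weights, whose fit stopped before its convergence tolerance was reached, -0.03 without replicate 1 of IAT adipocytes), Col4a1 (-0.03 without replicate 1 of EAT adipocytes), Col4a2 (0.08 under median-of-ratios scaling, 0.00 and 0.08 without replicates 2 and 3 of EAT adipocytes) and Col4a3 (-0.01 and -0.02 without replicate 1 of EAT and replicate 3 of IAT adipocytes). For adipocytes against SVCs in IAT they were Col15a1 (0.11 by TPM, 0.41 under median-of-ratios scaling, called at adjusted p = 0.00345, and 0.01 in 4 fits with a library left out) and Col18a1 (0.10 under median-of-ratios scaling). For the difference of the depot comparisons they were Col18a1 (-0.03 without replicate 1 of EAT adipocytes) and Col4a1 (0.02 by TPM, and 0.00 to 0.07 with a library left out, among them 0.01 and 0.02). With a library left out, the adipocyte depot values ranged from -0.03 to 0.19 for Col28a1, from -0.03 to 0.29 for Col4a1, from -0.28 to 0.08 for Col4a2 and from -0.02 to 0.05 for Col4a3. The IAT value of Col15a1 ranged from -0.06 to 0.01, and the difference of the depot comparisons from -0.03 to 0.30 for Col18a1 and from -0.25 to 0.07 for Col4a1. The cause was not tested. A block on the replicate number left the counts at 6 higher and 8 lower, 14 and 9, 3 and 25, 0 and 24, and 8 and 12. In their deviations from the group means, same-numbered libraries correlated at -0.312 to 0.373 and libraries of other numbers at -0.459 to 0.351. Of the 6 libraries in a comparison, 3 matched their own number best between the depots in adipocytes and between the fractions in IAT. This was 1 between the depots in SVCs and 0 between the fractions in EAT. These values do not settle whether libraries of one number belong together. Depth limits Col4a3, Col4a4, Col4a6, Col6a5, Col6a6, Col8a2, Col13a1 and Col27a1, the tested collagens with 15 estimated fragments or fewer in some library.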
